A study of Drosophila melanogaster with 2 samples.

Results

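Myb bound next to a small share of the noncoding RNA genes of the fly embryo, and a few of those sites were among the strongest in the genome. Peaks at noncoding RNA gene starts were the 109 of 6100 called Myb peaks (1.79%) whose summit lay within 500 bp of the start of an annotated noncoding RNA transcript and more than 500 bp from every start of a protein-coding transcript. They were chosen by position alone, from the build dm6 coordinates of the called list and the Ensembl annotation, so their signal played no part in the choice. The signal is the value that the authors' peak caller gave each peak, on a scale that is not stated, and is used here only to rank and describe peaks. Embryos came from a transgenic Drosophila melanogaster line in which Myb carries GFP at its C terminus. They were collected at 0 to 24 h of age with males and females together, and chromatin was precipitated with an antibody against GFP. There was 1 group of 2 biological replicates, with no other treatment or genotype, and no control library was analysed here. Both replicates came from the same fly line and from whole embryos, so a peak averages over all cell types and ages, and nothing here separates native Myb from the fusion protein.

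Myb is the only member of its transcription factor family in flies and works in the Myb-MuvB complex. It is best known for genes of the cell cycle, and MuvB reads the CHR element of such genes in mammals. Noncoding RNA genes differ in how they are made. RNA polymerase II transcribes long noncoding RNAs, most miRNA precursors and most snoRNA host genes, whereas RNA polymerase III transcribes tRNA, U6 and 5S RNA genes. The annotated 5′ end of a miRNA hairpin or of an intron-encoded snoRNA is that of a processed RNA, so a peak close to it need not be close to a transcription start.

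The DNA under 10 summits is shown because these are among the strongest peaks at a miRNA hairpin, a long noncoding RNA or an antisense RNA, or lie at long RNAs of known function. Each is the 101 bases centred on the summit, plus strand, from the RefSeq sequence of the same assembly, and capitals mark a match to 1 of 6 words searched on both strands. These were the Myb site (CAACGG or TAACGG), the CHR (TTCGAA or TTTGAA), E2F (TTNNCGC with G or C at each N), the DRE of core promoters (TATCGATA), the core of Motif 1 (GGTCACAC) and GAGA (GAGAG). The words for the A box and B box inside tRNA genes were also searched, and are not marked. The windows are chr3R:10100772-10100872 at mir-34, chrX:12751339-12751439 and chrX:12752312-12752412 at lncRNA:CR44619, chr2L:122416-122516 at asRNA:CR44969 and chr3L:174682-174782 at asRNA:CR45806. Those at long RNAs of known function are chr3R:21295826-21295926 at Hsromega, chrX:3862621-3862721 at roX1, chrX:11578984-11579084 at roX2, and chrX:21631657-21631757 and chrX:21632913-21633013 at flam.
mir-34: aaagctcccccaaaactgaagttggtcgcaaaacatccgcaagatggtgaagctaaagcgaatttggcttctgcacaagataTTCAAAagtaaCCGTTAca
lncRNA:CR44619, stronger summit: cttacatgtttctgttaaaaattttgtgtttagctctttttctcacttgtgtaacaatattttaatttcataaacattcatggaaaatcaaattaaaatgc
lncRNA:CR44619, weaker summit: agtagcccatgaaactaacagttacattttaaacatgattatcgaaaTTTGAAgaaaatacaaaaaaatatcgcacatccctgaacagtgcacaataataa
asRNA:CR44969: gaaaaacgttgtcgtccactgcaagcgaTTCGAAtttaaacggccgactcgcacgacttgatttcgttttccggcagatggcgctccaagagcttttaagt
asRNA:CR45806: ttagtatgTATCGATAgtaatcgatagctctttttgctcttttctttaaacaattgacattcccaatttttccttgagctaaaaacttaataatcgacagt
lncRNA:Hsromega: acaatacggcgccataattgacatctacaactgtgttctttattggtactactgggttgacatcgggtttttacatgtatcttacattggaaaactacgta
lncRNA:roX1: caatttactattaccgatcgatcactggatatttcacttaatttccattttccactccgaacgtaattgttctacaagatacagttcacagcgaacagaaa
lncRNA:roX2: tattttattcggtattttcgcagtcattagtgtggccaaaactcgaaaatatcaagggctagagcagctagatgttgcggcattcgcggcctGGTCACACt
lncRNA:flam, stronger summit: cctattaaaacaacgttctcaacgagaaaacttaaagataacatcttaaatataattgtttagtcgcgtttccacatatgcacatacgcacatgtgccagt
lncRNA:flam, weaker summit: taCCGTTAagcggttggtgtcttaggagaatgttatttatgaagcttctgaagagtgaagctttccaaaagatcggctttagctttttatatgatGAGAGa

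In the mir-34 window the Myb word began 43 bp and the CHR word 32 bp to the right of the summit. At the weaker summit of lncRNA:CR44619 a CHR word began 3 bp to the left of the summit, and at asRNA:CR44969 it began 22 bp to the left. The windows of the stronger lncRNA:CR44619 summit, Hsromega, roX1 and the stronger flam summit held none of the 6 words. A match is a description of the letters and not a measured binding site, and a missing match says nothing about the factor.

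The miRNA hairpins and the U1 RNA are shown as RNAs because their own sequences carry their functions. Mature sequences of mir-34 and mir-275, the hairpins with the strongest peaks, are given 5′ to 3′ from the RefSeq annotation with the seed, bases 2 to 8, in capitals. The first 30 bases of the U1 RNA from snRNA:U1:95Ca carry in capitals the 9 bases that pair with 5′ splice sites.
mir-34, 5′ arm: uGGCAGUGugguuagcugguugug
mir-34, 3′ arm: cAGCCACUaucuucacugccgcc
mir-275, 5′ arm: cGCGCUAAucagugaccggggcu
mir-275, 3′ arm: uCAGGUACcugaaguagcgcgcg
snRNA:U1:95Ca, first bases: auACUUACCUGgcguagagguuaaccguga

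Among 8 of the 9 hairpins with a peak, 16 mature arms were compared, and no seed was shared between any of them.

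Few noncoding RNA genes had a called Myb peak, and many of those that did lay beside a protein-coding gene. A called summit lay within 500 bp of a start of 278 of 3470 noncoding RNA genes (8.01%), against 4966 of 13945 protein-coding genes (35.6%). The 109 peaks reached 113 noncoding genes. The other 165 called noncoding genes were reached only by peaks that also lay near a protein-coding start. Among genes more than 1000 bp from protein-coding starts, 93 of 2469 noncoding genes were called (3.77%, Wilson 95% interval 3.08% to 4.59%). Of 7960 protein-coding genes with no other protein-coding start within 1000 bp, 1728 were called (21.7%, 20.8% to 22.6%). The intervals do not overlap, and they treat genes as independent, cover sampling of genes only and do not include variation between embryos. A gene was called if any of its annotated starts qualified. The number of starts per gene was not equalised, and its part in the difference was not tested.

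The classes of noncoding RNA had similar shares of called genes once neighbours were set aside. Among such isolated genes, 56 of 1516 long noncoding RNA genes (3.69%), 10 of 209 antisense RNA genes (4.78%) and 8 of 196 miRNA hairpins (4.08%) had a called summit. The shares were 3.79% for tRNA genes (8 of 211), 3.8% for snoRNA genes (7 called) and 3.7% for other ncRNA genes (1 of 27). For snRNA genes it was 11.1% (3 of 27), with a wide interval, from 3.85% to 28.1%, that overlaps the intervals of these classes. None of 99 rRNA genes was called (0%), which allows a share of up to 3.74%. No 31-base word within 500 bp of the start was unique in the genome at a median rRNA gene, and 99 of 99 had fewer than 50% unique words. The corresponding median was 92.1% at tRNA genes and 100% at long noncoding RNA genes. The part that read placement had in the rRNA result was not tested.

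**Figure D1:**
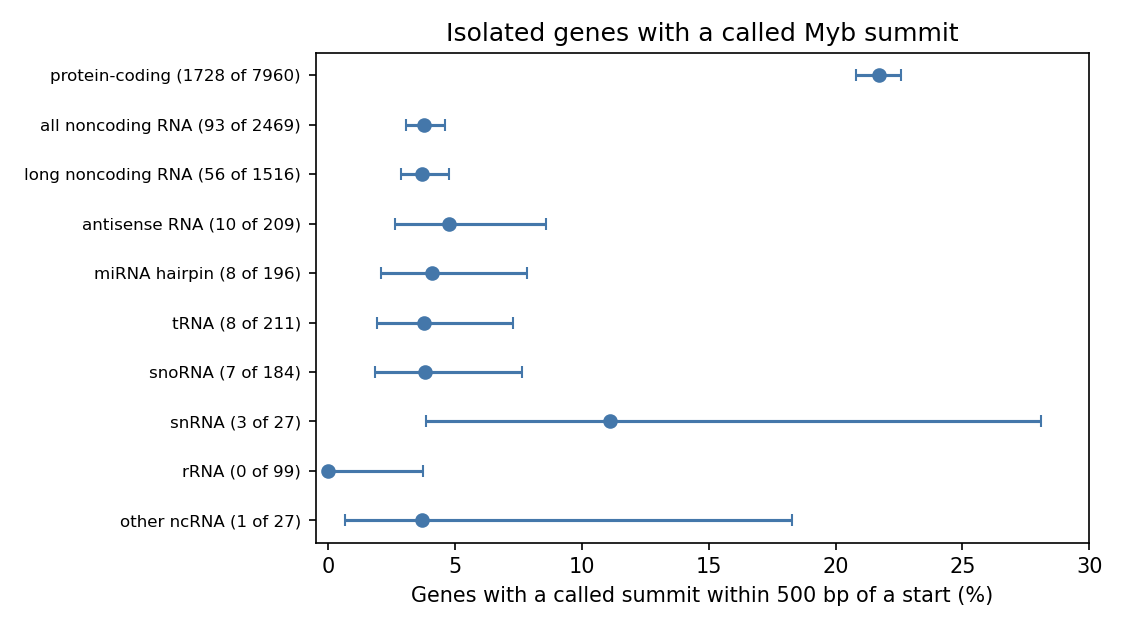
Percent of isolated genes (more than 1000 bp from other protein-coding starts) with a called Myb summit within 500 bp of a start, by class on the vertical axis. Points are shares and bars are Wilson 95% intervals over genes, which for rRNA treat repeated copies as independent. Noncoding classes sit between 0% and 11.1%, and protein-coding genes at 21.7%.

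Peaks that were not called reached more noncoding genes. In the relaxed pooled list of 30000 peaks, 23.8% of isolated noncoding genes had a summit within 500 bp, and 45.9% of isolated protein-coding genes. The tRNA genes stood at 45.5% in that list, 96 of 211, and long noncoding RNA genes at 22.9%. The relaxed list includes background by design, and whether the tRNA value reflects Myb was not tested without a control library.

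The 109 peaks ranged from near the lowest called signal to among the highest. Their median signal was 179 (95% order-statistic interval 148 to 217), against 183 over all called peaks, 203 at protein-coding starts and 148 at the remaining called peaks. Signals ran from 94.0 to 5336. Of the 109, 23 fell in the strongest 1525 called peaks (21.1%) and 33 in the weakest 1525 (30.3%), and 6 exceeded a signal of 1000. Summits lay a median of 219 bp from the noncoding start, and 31 lay within 100 bp, while the median distance at protein-coding starts was 65 bp. Of the summits, 75 of 109 (68.8%) were upstream of the start, against 80.1% at protein-coding starts. No test was made of these differences.

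**Figure D2:**
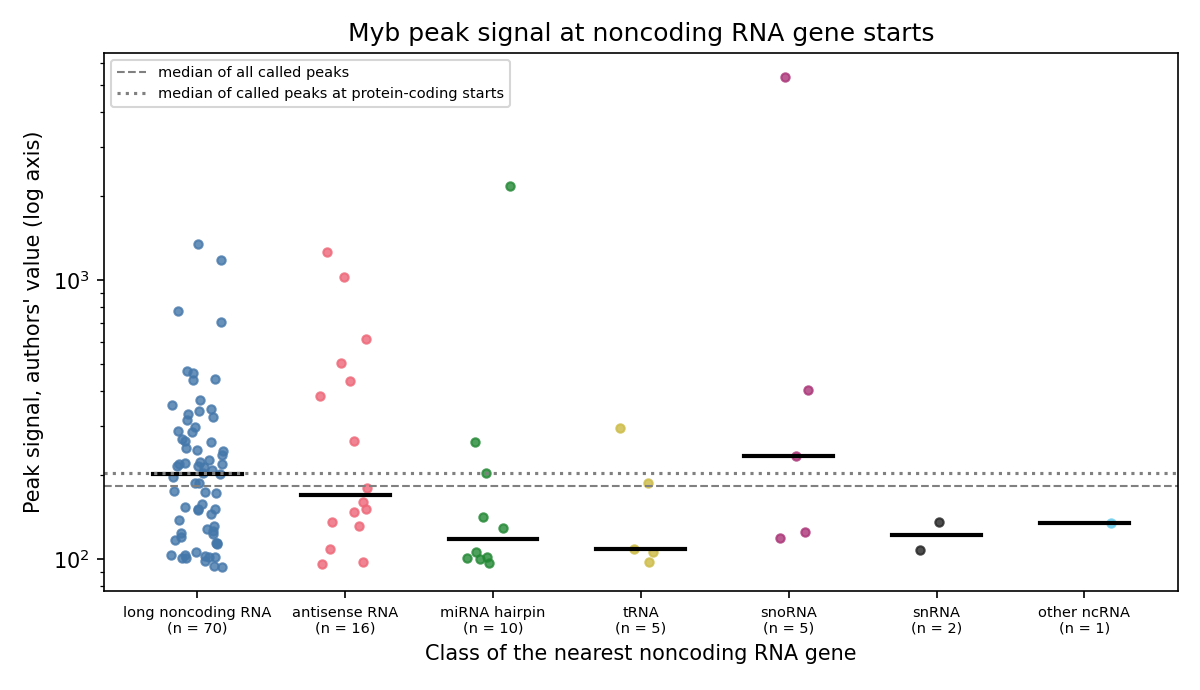
Signal of each of the 109 peaks on a log axis, by class of the nearest noncoding RNA gene, with black lines at class medians and grey lines at the medians of all called peaks and of peaks at protein-coding starts. The strongest peak has a snoRNA gene as its nearest noncoding gene, with its summit beyond the 3′ end of that gene, and the next has a miRNA hairpin, while most peaks of each class lie below 1000.

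**Figure D3:**
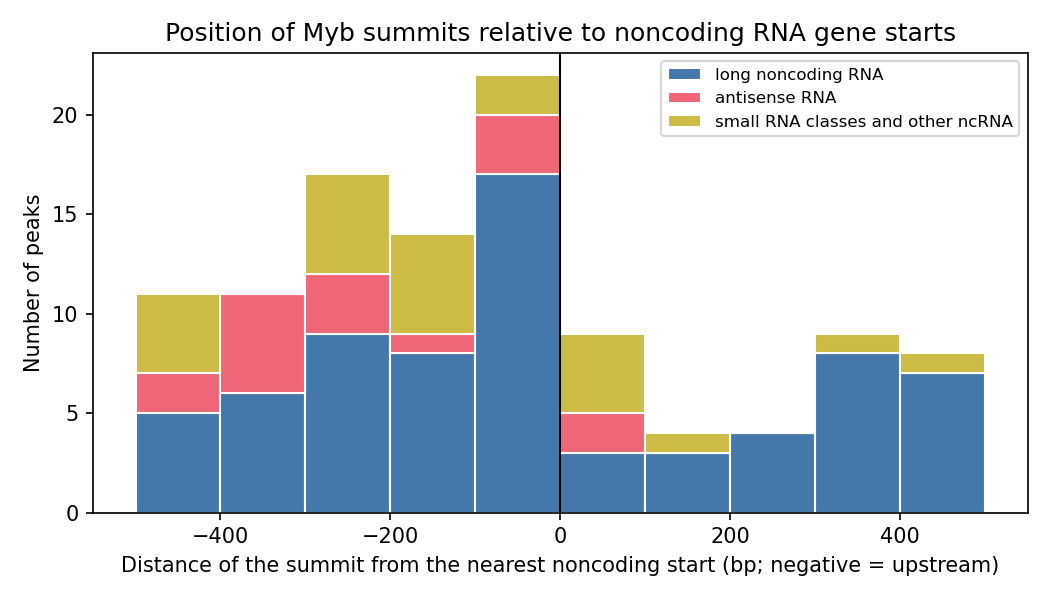
Number of peaks by distance of the summit from the nearest noncoding start in bp, in bins of 100 bp, with negative values upstream and colours for long noncoding, antisense and the remaining RNAs. More peaks lie upstream, 75 of 109, and no bin is empty.

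The replicates gave close values at the strong peaks and wider ones at the weak. A summit within 100 bp stood among the strongest 6100 peaks of both replicates for 82 of 109 peaks (75.2%), and for 3 in neither. The share was 78.3% for all called peaks, 80.9% at protein-coding starts and 72.2% at the remaining peaks. For 102 peaks with a value in both relaxed lists, the median fold between replicates was 1.23, and 1.10 for the 23 among the strongest 1525 called peaks. The median log2 ratio of replicate 1 to replicate 2 was −0.13, and replicate 2 was the higher at 64 peaks. At 6 peaks the replicates differed by over 2-fold, with a maximum of 2.49-fold. These were the peaks at mir-9378, lncRNA:CR45588, asRNA:CR45891 and snRNA:U6:96Ac, the weaker one at mir-3641 and the weaker one at flam. With 2 replicates and 1 group, no difference between peaks was tested.

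**Figure D4:**
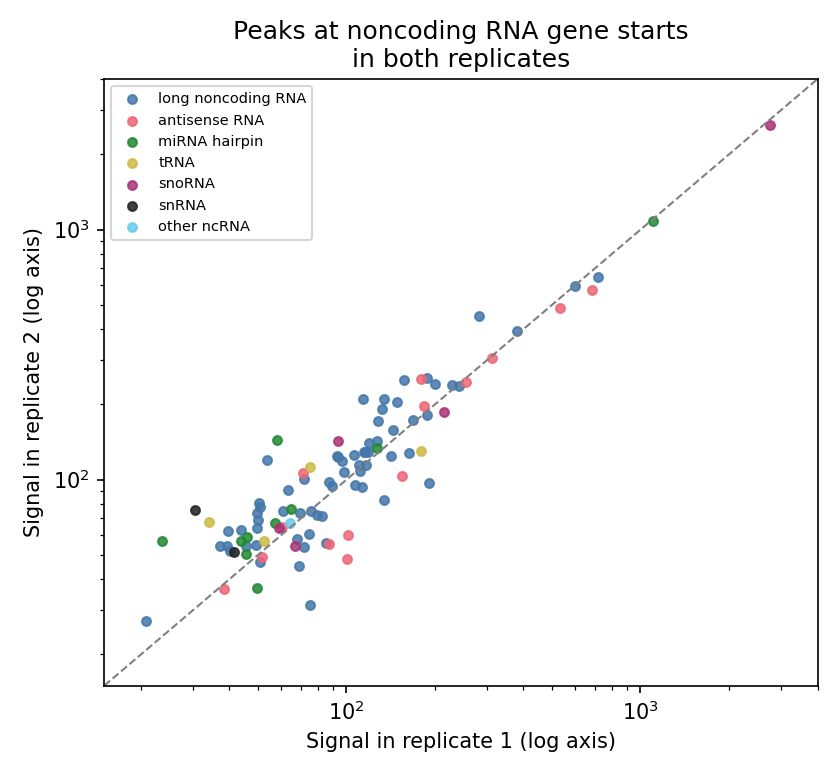
Signal in replicate 1 against signal in replicate 2, both on log axes, for the 102 peaks with a summit within 100 bp in both relaxed lists, coloured by class, with a dashed line of equal values. Points above a signal of 500 lie close to the line, and those below 100 scatter around it.

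Long noncoding RNA genes held 70 of the 109 peaks, at 66 genes, with a median signal of 203. These are transcripts without a long reading frame, most of them known only by a number. Of the 70 summits, 49 lay outside protein-coding genes, 20 in an intron and 1 in an exon of one, and 45 were upstream of the start.

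lncRNA:CR44619 (FBgn0265830, chrX:12751867-12754571, plus strand) had the strongest of these and was flanked by a summit on either side of its start. The summit 478 bp upstream had a signal of 1352, with 714 in replicate 1 and 644 in replicate 2. The summit 495 bp downstream had 1182, with 598 and 596. The summits were 973 bp apart, and the replicates were nearly equal at each. The first lay inside lncRNA:Vinr, a virus-inducible long noncoding RNA on the same strand, and the second 12 bp past its 3′ end. The nearest protein-coding start, that of CG4004, was 5072 bp and 6045 bp away.

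lncRNA:CR31044 (FBgn0051044, chr3R:29214562-29219667, plus strand) had a summit 113 bp upstream of its start with a signal of 779, 381 in replicate 1 and 393 in replicate 2. Its span holds mir-279 and mir-996, miRNAs with the same seed that restrain the formation of carbon dioxide sensing neurons in the fly. No called summit lay within 500 bp of either hairpin, so the peak was at the start of the host and not at the miRNAs.

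lncRNA:CR31840 had a signal of 711 at 25 bp downstream of its start, with 282 in replicate 1 and 450 in replicate 2. Next were lncRNA:CR43626 at 475, lncRNA:CR44867 at 465 inside an intron of beat-Ib on the opposite strand, and lncRNA:CR45668 at 443. The last lay 654 bp from the start of Act5C, an actin gene. lncRNA:CR44810 followed at 439, lncRNA:CR45325 at 374 within introns of Sesn and CG46429, and lncRNA:CR44339 at 356. The lowest were lncRNA:CR44993 at 94.8 and lncRNA:CR46535 at 94.0.

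Long RNAs of known function had moderate peaks. Hsromega, a nuclear RNA strongly induced by heat shock, had a summit 251 bp upstream with a signal of 287, 164 in replicate 1 and 128 in replicate 2. The dosage compensation RNAs roX1 and roX2, which act with the MSL proteins on the male X chromosome, both had a summit within 50 bp of the start. The signal at roX2 was 114, with 50.2 and 68.8 in the replicates. At roX1 it was 188, with 78.5 in replicate 1, and the nearest summit of replicate 2 lay 103 bp away with a signal of 116. Against the median called peak of 183, roX2 was lower and roX1 about level.

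The iab8 RNA of the bithorax complex had a signal of 123, with 68.0 and 57.8, at 285 bp past a start, and its neighbour bxd had no called summit within 500 bp. flam, the source of piRNAs that silence gypsy-family elements in ovarian follicle cells, had a peak of 152 upstream of its start, with 63.2 and 90.7. Its weaker peak of 101 lay inside the gene, 466 bp upstream of an internal annotated start, with 75.3 and 31.5. The replicates went opposite ways at the flam peaks.

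Called peaks lay at a larger share of the long RNA genes that carry small RNA genes inside them. This grouping was made after the peak at lncRNA:CR31044 had been seen, so its counts are a description. Of 50 long noncoding or antisense RNA genes with a miRNA, snoRNA or other small RNA gene inside on the same strand, 12 had a called summit at a start (24%, 14.3% to 37.4%). Of the 2412 without one, 198 did (8.21%, 7.18% to 9.37%). Among genes more than 1000 bp from protein-coding starts, the shares were 6 of 40 (15%, 7.06% to 29.1%) and 60 of 1685 (3.56%, 2.78% to 4.56%). lncRNA:CR31044 itself is among the 12 and among the 6. Here too a gene was called if any of its annotated starts qualified. At lncRNA:CR43626, lncRNA:CR43650 and iab8 the summit lay near an internal annotated start and not near the 5′ end of the gene. The number of starts and the length of the genes were not equalised, and their part in the difference was not tested. The intervals do not allow for the choice of grouping after its peak was seen, and no test was made.

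Of the 12, 10 had their peak among the 109. They included the hosts of mir-279 and mir-996, of mir-282 (lncRNA:CR43626), of mir-8 (lncRNA:CR43650, signal 172), of mir-275 (lncRNA:CR43857, signal 128) and of both mir-281 hairpins (asRNA:CR46194, signal 160). mir-8 belongs to the miR-200 family and promotes growth of the fly larva. The other long RNAs with a hairpin inside were Hsromega, with mir-4951, and iab8, with mir-iab-8. Hosts of bantam, mir-1, mir-9a, mir-14, mir-124, mir-184 and the let-7 complex had no called summit within 500 bp of a start.

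The snoRNA host genes, whose introns carry snoRNAs while their exons encode no protein, included some with weak called peaks. A called summit lay at the start of 5 of 7 Uhg genes, against 8.01% of all noncoding RNA genes and 35.6% of protein-coding genes. Of the 7, 5 start within 1000 bp of a protein-coding start, and of the other 2 (Uhg3 and Uhg7) 1 was called. Uhg4 had a signal of 266, with 127 in replicate 1 and 143 in replicate 2, and Uhg3 had 106, with 50.9 and 46.8. Uhg1, which holds 16 snoRNA genes, had 101, with 49.2 and 54.7. Their summits were 53 bp, 47 bp and 86 bp upstream of the start. Uhg8 at 126 and Uhg5 at 94.5 were called by peaks that also lay near a protein-coding start, and Uhg2 and Uhg7 had no called summit. Apart from Uhg4, the signals were below the median called peak.

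Antisense RNA genes, a class set here by annotated name and type, held 16 peaks with a median signal of 170. Of these, 14 were upstream of the RNA's start, and 10 lay within a protein-coding gene, 7 in introns. At 6 of the 16 peaks a protein-coding gene on the other strand enclosed the whole RNA gene, and partial overlap was not counted. A further 63 of the 79 called antisense genes were reached only by peaks near a protein-coding start. Of antisense RNA genes, 36.2% had a start within 500 bp of a protein-coding start, against 13.5% of long noncoding RNA genes and 44.8% of other ncRNA genes.

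asRNA:CR44969 (FBgn0266304, chr2L:122837-124031) had the strongest peak, 371 bp upstream of its start, with a signal of 1261, 682 in replicate 1 and 575 in replicate 2. It lay in an intron of ND-15, which encodes a subunit of mitochondrial complex I, and 712 bp from the start of CG4822. ND-15 is on the same strand as this RNA, and the gene it opposes is CG3164. asRNA:CR45806 (chr3L:175138-176104), opposite CG7049, had 1024, with 534 and 488. asRNA:CR44375 had 615, with 312 and 307, and lay 55 bp upstream of its start in an intron of Cdk4, which it opposes. Cdk4 is the kinase partner of cyclin D, and the peak was 2591 bp from its nearest annotated start. Next were asRNA:CR46453 at 506 and asRNA:CR45281 at 435, followed by asRNA:CR45999 at 385 and asRNA:CR45908 at 265. asRNA:CR46484 at 179, asRNA:CR46194 at 160 and asRNA:CR44429 at 152 completed the highest 10. The lowest were asRNA:CR43469 at 97.8 and asRNA:CR31514 at 96.03.

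The 10 peaks at miRNA hairpins lay at 9 hairpins and had a median signal of 118, with 1 far above the rest. mir-34 (chr3R:10100936-10101034, plus strand), a miRNA that protects the ageing fly brain, had a signal of 2183, 1103 in replicate 1 and 1081 in replicate 2, at rank 83 of all called peaks. The replicates were nearly equal. The summit lay 114 bp upstream of the hairpin and 701 bp past mir-277, inside their shared host lncRNA:CR43459, whose own start had no called summit. It was also 598 bp from the 3′ end of Fmr1, which runs toward it on the other strand, and 7520 bp from the nearest protein-coding start.

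mir-275, which is required for egg development in mosquitoes, had a signal of 264 at 412 bp upstream of the hairpin, with 127 and 134 in the replicates. The start of its host lncRNA:CR43857 had its own weaker peak of 128, with 71.6 and 53.7, so the stronger signal was nearer the hairpin. mir-305 lay 589 bp from the same summit, beyond the distance used.

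The remaining hairpins lay in protein-coding genes, all but mir-4978 on the strand of the host. mir-9378 in CG17124 had 203, but 57.9 in replicate 1 and 144 in replicate 2. mir-4962 in Tlk, a tousled-like kinase, had 141, and mir-3641 in CG3630 had peaks of 129 and 102. mir-2491 in fog, a secreted signal of gastrulation, had 106, and mir-4978 in mam, a Notch coactivator, had 101. mir-4974 in CG8671 had 99.8, and mir-9377 in Tis11 had 97.3. All but mir-9378 were below the median called peak. Of 22 well-studied hairpins examined, 3 had a called summit (13.6%), namely mir-34, mir-275 and mir-92a. This is near the share of all hairpins, 24 of 260 (9.23%), and of all noncoding RNA genes (8.01%). The peak at mir-92a, with a signal of 1391, is not among the 109 because it also lies near a protein-coding start.

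The snoRNA genes held 5 peaks with a median of 234, and all 5 were among the strongest 6100 of both replicates. snoRNA:Or-CD4, an orphan C/D box RNA with no known target, was nearest to the strongest of the 109, with a signal of 5336, 2753 in replicate 1 and 2611 in replicate 2. It ranked 5 among all called peaks, and the replicates were nearly equal. The summit, at position 14624716 of arm 2R, lay 463 bp downstream of the snoRNA's 5′ end and 218 bp past the 3′ end of its host Uhg5. It was 3396 bp from the nearest protein-coding start. The annotation used placed the summit in no gene, so the snoRNA's name only gives its position.

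snoRNA:Psi28S-3342, named for a pseudouridine of the large rRNA, had a signal of 403, with 215 and 186, at 266 bp upstream. snoRNA:Or-ACA6, in an intron of egr, which encodes the fly TNF, had 234, with 93.9 and 143. snoRNA:Me18S-C1968 in Swim had 125, and the peak shared by the snoRNA gene FBgn0065076 and tRNA:Glu-TTC-1-5 had 120. snoRNA:Or-ACA9, in an intron of AdamTS-A, had 135 and is listed by the annotation under general ncRNA.

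The tRNA genes held 5 peaks with a median of 109. The peak at tRNA:Ala-CGC-1-2 and tRNA:Ala-CGC-1-3, in an intron of gol, was the highest at 296, with 179 in replicate 1 and 130 in replicate 2. tRNA:Gln-TTG-2-1 had 187, with 74.9 and 113. tRNA:Phe-GAA-1-4 and tRNA:Phe-GAA-1-5 shared a peak of 109. tRNA:Thr-AGT-1-2 had 106 and no replicate 1 summit within 100 bp, and tRNA:Val-CAC-1-1 had 97.5. Only the first 2 of these peaks exceeded the median called peak.

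The snRNA genes held 2 peaks, and neither was in the strongest 6100 of both replicates. The summit at snRNA:U1:95Ca, a gene for the RNA that recognises 5′ splice sites, was 4 bp inside the gene, with a signal of 136, 41.4 in replicate 1 and 51.3 in replicate 2. snRNA:U6:96Ac and snRNA:U6:96Ab, genes for the RNA at the catalytic centre of the spliceosome, shared a peak of 108, with 30.6 and 75.4. Copies of these genes share sequence, so reads could be split among them, and the part of read placement in these peaks was not tested. Near a median snRNA gene 92.02% of 31-base words were unique, which is a value of the class and not of these genes. Of 29 spliceosomal and U7 genes, 3 had a called summit (10.3%), and of 6 genes for 7SK, 7SL, RNase P and RNase MRP RNAs, 0 did, against 8.01% of all noncoding RNA genes.

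Words known from Myb targets had shares at these summits close to or below those of all called peaks. Within 50 bp, a Myb site was found at 8 of 109 (7.34%, 3.77% to 13.8%), against 9.59% of all called peaks and 11% at protein-coding starts. The CHR word was found at 23 (21.1%), against 23% and 23.2%, and E2F at 2 (1.83%), against 4.98% and 5.53%. The Myb and CHR words came together within 50 bp of the summit at snoRNA:Or-CD4, mir-34 and asRNA:CR44375, all in the highest 10 of the 109 by signal, and at no other. Of the 109, 28 held a Myb or CHR word and 62 held none of the first 6 words. These combinations were not counted over all called peaks or at protein-coding starts, so they have no background beside them. A link between paired words and signal was not tested.

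Words of protein-coding core promoters were rarer. The DRE stood at 1 of 109 summits, at asRNA:CR45806 (0.917%, up to 5.01%), against 8.41% at protein-coding starts and 0.745% at the remaining called peaks. Motif 1 stood at 1, at roX2 (0.917%), against 7.28% and 0.573%. GAGA stood at 18 of 109 (16.5%, 10.7% to 24.6%), against 9.28% at protein-coding starts and 10.7% at the remaining peaks. Within 100 bp the GAGA share was 25.7%, against 18.7% and 25.1%, so it no longer stood above the remaining peaks. A box words were at 15.6% of the summits and 14% of all called peaks, and B box words at 4.59% and 3.13%. No test was made of these shares, and the median GC content of the 101-base windows was 38.6% at noncoding starts and 40.6% at protein-coding starts.

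**Figure D5:**
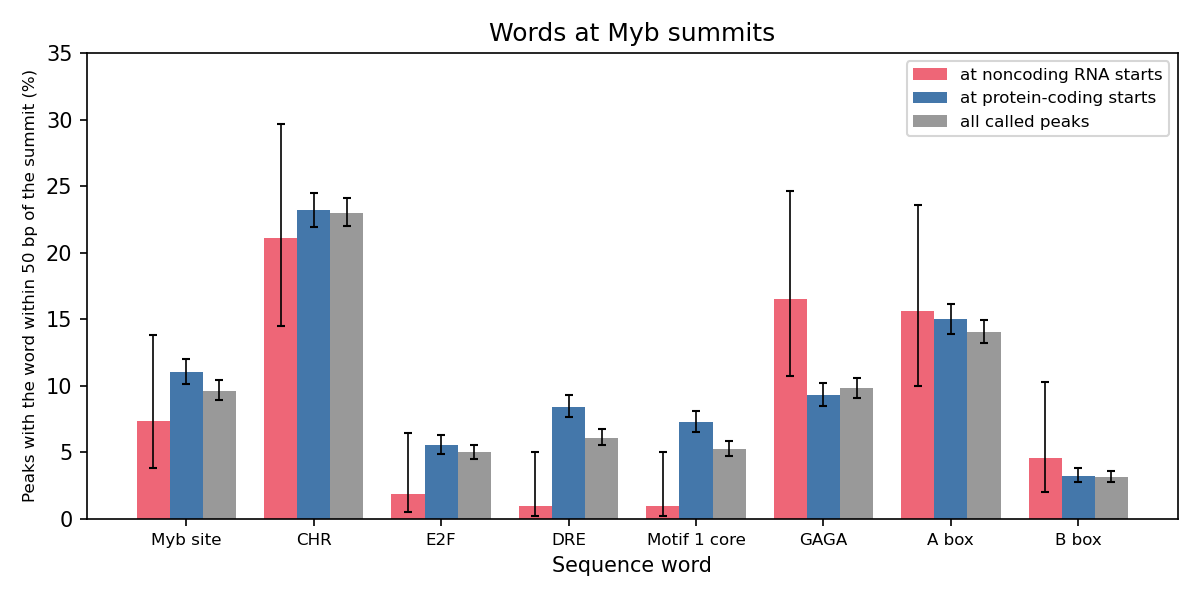
Percent of peaks with each word within 50 bp of the summit, for peaks at noncoding RNA starts (109), at protein-coding starts (4246) and all called peaks (6100), with Wilson 95% intervals over peaks. The bars for DRE and Motif 1 are 0.917% at noncoding starts against 8.41% and 7.28% at protein-coding starts, while GAGA is 16.5% against 9.28%.

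The peaks fell on all arms but the fourth chromosome, with 21 on 2L, 32 on 2R, 12 on 3L, 21 on 3R and 23 on X. Arm 2R held 29.4% of them, 19.7% of all called peaks and 21.5% of noncoding RNA genes. Arm 3L held 11.01%, 19.1% and 20.2%, and the X held 21.1%, 18.5% and 12.5%. Arms 2L and 3R each held 19.3% of them, with 18.2% and 24.0% of all called peaks. No test was made of these shares. Summits lay a median of 2815 bp from the nearest protein-coding start, 28 were more than 5 kb away and 20 were within 1 kb. Of the 109, 38 were in an intron of a protein-coding gene, 7 in an exon and 64 outside such genes.

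Membership of most of the strongest peaks depended on the distance limits. Of the 6 peaks with a signal over 1000, 5 lay 371 to 495 bp from the noncoding start, so a limit of 250 bp would leave out all of them but mir-34. The limit to protein-coding starts left out strong peaks too, among them those at asRNA:CR43467 (signal 4458), asRNA:CR44850 (2652) and mir-92a. Just inside the limit to the noncoding start were lncRNA:CR44619 at 495 bp (signal 1182), lncRNA:CR43411 at 490 bp (146) and lncRNA:CR44828 at 488 bp (187). Just outside were lncRNA:CR45277 at 503 bp (250), lncRNA:CR46322 at 512 bp (122) and lncRNA:CR32660 at 517 bp (138). At the limit to protein-coding starts, the peaks at lncRNA:CR44826 (525 bp, signal 249), lncRNA:CR43644 (526 bp, 236) and Uhg4 (562 bp, 266) were kept. Those at asRNA:CR46044 (485 bp, 114), lncRNA:CR45478 (465 bp, 155) and asRNA:CR43243 (460 bp, 131) were left out.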

How the data were processed

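The 2 biological replicates of 1 group were measured by ChIP-seq, with chromatin sheared to 200 to 800 bp per the labels. Per the labels' file listing, the authors called relaxed peak lists on each replicate and on the pooled alignments, and derived the called list from them. The deposited signal of a peak is the authors' value, on a scale that is not stated. The deposited −log10 q-value was 4.13 at every called peak and ranked nothing. Which software aligned the reads and called peaks, and at which IDR cutoff, was not given in the sources used here. Because no read depth is known, intervals cover sampling of peaks or genes only.

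Only dm6 lists were used. Starts were those of all transcripts of Ensembl release 115, on 6 arms. This annotation lists hairpins and 481 mature arms as separate ncRNA genes; arms were joined to their hairpins. Long noncoding, antisense and other ncRNA genes were told apart by name and RefSeq type. Of the called entries, 96 repeat another's interval with a different summit and were kept. Membership and word searches were tested on simulated data (python 3.11.15, numpy 2.4.6, pandas 2.3.3, scipy 1.17.1, matplotlib 3.10.9).

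Members, lists and comparisons were chosen with earlier results of these data known. Named genes were all members of classes with 10 or fewer, and the highest 10 and lowest 2 of larger classes. The 3 nearest each limit on either side and a list of well-studied noncoding RNA genes were also named. Of that list 169 genes were found and 15 were called (8.88%). The 169 include 99 rRNA genes, none of them called, which lowers this share. Names beyond the rule were chosen after their values were seen. Alternatives were other distances and exclusions, the 3050 stronger peaks of the list, 1 summit per interval, gene starts only, each replicate alone and wider windows.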

Additional observations from a re-analysis of the deposited data

How the results depend on the processing

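Of 52 comparisons of 6 main measures with an alternative, 40 were labelled close to the reported value and 12 moved. The labels were looser for the number of peaks than for its share. Counts of 80 (250 bp), 143 (1000 bp) and 89 (exclusion within 1000 bp) were labelled close, although the same settings moved the share of called peaks. The tally therefore does not show that the number of peaks is stable. The measures were 109 peaks, 1.787% of called peaks, a median signal of 179.3, that median at 0.9802 of the list's, 8.012% of noncoding genes called, and 75.23% of peaks seen in both replicates. The ratio was added after seeing the data. With no exclusion of protein-coding starts there were 289 peaks (4.738%), and with exclusion within 1000 bp 1.459% of called peaks qualified. Distances of 250 bp gave 1.311% of peaks and 4.438% of genes, and 1000 bp gave 2.344% and 13.75%. The 3050 stronger peaks of the list gave 54 peaks, a median of 287.7, 4.352% of genes and 96.3% in both replicates, and a replicate distance of 200 bp gave 82.57%. Of the 109, 61 remained among 80 at 250 bp, 89 among 143 at 1000 bp and 103 among 116 with gene starts only. Within 100 bp of the summit the Myb, CHR, GAGA and A box shares rose to 15.6%, 41.3%, 25.7% and 29.4%, as a wider window must allow. Either replicate alone left the number and share of peaks and genes close. It gave no median signal or share in both replicates, since its scale differs and that share needs both lists. The ratio of the median to the list's was 0.8594 without replicate 1 and 0.9458 without replicate 2, both below the 0.9802 of the pooled list and labelled close to it. No paired analysis was possible because there is 1 group. Depth is unknown and no control library was analysed, and the effect of either was not tested.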
